A study of Homo sapiens with 16 samples.

Results

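The response to the phorbol ester TPA (12-O-tetradecanoylphorbol acetate) was measured in human skin fibroblasts in which the kinase inhibitor H89 was already present. The libraries were chosen by their labelled treatment: 2 libraries of cells given H89 and then TPA (TPA+H89 1 and 2) were set against 3 libraries of cells given H89 alone (H89 1, 2 and 3), which makes 5 of the 16 samples of the series. The cells were CCD-1070Sk, a line of normal human skin fibroblasts, and all groups were serum starved before treatment. In the H89 group 10 µM H89 was given for 30 min and the sample is labelled 0 h. In the TPA+H89 group the same 30 min with 10 µM H89 was followed by 100 nM TPA, and the sample is labelled 1 h. Time in H89 and TPA itself therefore cannot be told apart in this comparison. For reference, TPA (2 libraries, 100 nM for 1 h, no H89), untreated control (3 distinct libraries) and EGF+H89 (2 libraries, H89 and then 30 ng/ml epidermal growth factor for 1 h) were used. The labels do not tie replicates to separate cultures, so p-values cover only the spread between these libraries, which could be technical, and all samples come from 1 cell line.

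TPA mimics diacylglycerol and activates protein kinase C, which in turn activates the RAF, MEK and ERK cascade. ERK activates the kinases MSK and RSK, which phosphorylate CREB and histone H3 at the regulatory regions of immediate-early genes, the genes that cells switch on without prior protein synthesis. H89 blocks MSK1 and MSK2 and also protein kinase A, and it is used to ask which early genes need those kinases. Many immediate-early products are transcription factors (EGR, FOS, JUN and NR4A families), and others are brakes on the same cascade, such as the DUSP phosphatases and the Sprouty proteins.

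Total counts ran from 7527026 to 70470733 among the 5 libraries. TPA+H89 1 was the shallowest and stood apart: 15748 genes had a count, its correlation (Pearson r of log2 CPM, a gene's count scaled to a common library total by TMM) with the other 4 libraries was 0.935 to 0.946 while all other pairs reached 0.968 to 0.985, and the structured RNA RMRP took 13.4% of its counts. All 4 small structured RNAs tested (RMRP, RPPH1, SCARNA2 and TERC) were highest in that library, where their sum was 268053 CPM against 24700 to 51572 CPM in H89 and 50858 CPM in TPA+H89 2. Their median log2 fold change was 1.39, and 0 of 4 were called. RNR1 and RNR2 took 26.3% of the counts in H89 1 and 12.0% in TPA+H89 1, and had no counts in the other 3 libraries. Differences are also given inside 2 pairs. By running sample name TPA+H89 1 goes with H89 2 and TPA+H89 2 with H89 3, here called name pairs. The deviations of these libraries from their group means correlated at -0.35 and 0.04. With 2 TPA+H89 libraries the deviations of one mirror those of the other, so such values neither show nor exclude a shared origin. By technical batch, read from the RNR1 and RNR2 counts and the pattern of low counts, TPA+H89 1 goes with H89 1 (0.28) and TPA+H89 2 with H89 2 and 3 (0.35 and 0.04), here called batch pairs, with the mean of H89 2 and 3 in the second. The 21 fibroblast identity genes, collagens and PDGFRA among them, summed to 45133 to 62103 CPM in H89 and 50243 to 52023 CPM in TPA+H89. Of the markers of other skin cells, 8 of 10 keratinocyte, 7 of 9 endothelial, 4 of 7 melanocyte and 8 of 10 leukocyte genes were under 1 CPM in all 5 libraries, and KRT5, KRT14, KRT1, CDH5, ERG, TYR, CD3E and MS4A1 had no counts. Their summed levels in H89 and in TPA+H89 were 26.04 to 38.3 and 33.4 to 55.4 CPM for keratinocyte, 2.39 to 5.51 and 4.74 to 5.20 CPM for endothelial, 24.1 to 43.6 and 32.3 to 48.8 CPM for melanocyte, and 42.9 to 68.0 and 18.8 to 49.9 CPM for leukocyte genes.

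With H89 present, 18 genes rose after TPA, 12 of them from the lists of immediate-early transcription factors and of ERK feedback regulators, and no gene passed the test in the downward direction. Those lists hold 33 and 20 of the genes tested and were written with earlier results of these data known. The quasi-likelihood test of edgeR was run on 18575 genes with Benjamini-Hochberg adjustment, and called 18 higher in TPA+H89 than in H89 at an adjusted p under 0.05, which is 0.0969% of the genes, and 0 lower. DESeq2 also called 0 lower, and 723 genes had an unadjusted p under 0.05. Called genes rose by 1.69 to 7.56 on the log2 scale while the median of all genes was 0. In all 18 the lowest TPA+H89 library lay above the highest H89 library, which held for 9.92% of all genes in this direction. All 18 were also higher by more than 1 on the log2 scale in both name pairs, as were 1.93% of all genes, and in both batch pairs, as were 291 of the 18575. The 18 were called on these same libraries, so these counts describe them and are no further support. Since values are relative to the total of a library, a change in the total RNA of the cells is not seen in them.

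The number of calls changed with the libraries left out. Without H89 1 only EGR2 remained called, and without H89 2 or without H89 3 there were 0 calls, with 394 and 736 genes at an unadjusted p under 0.05. Without TPA+H89 1, 17 genes were called and 13 of the 18 were among them, while without TPA+H89 2, 12 were called and 5 of the 18 were among them. These last 2 fits hold 1 TPA+H89 library, which is assumed to vary like the libraries of the other groups. Scaling to the total count moved the median of all genes to -0.15 and left EGR2 alone. DESeq2 called 76 genes higher, with all 18 among them. The direction of each of the 18 was the same under all 17 alternatives tried.

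**Figure D1:**
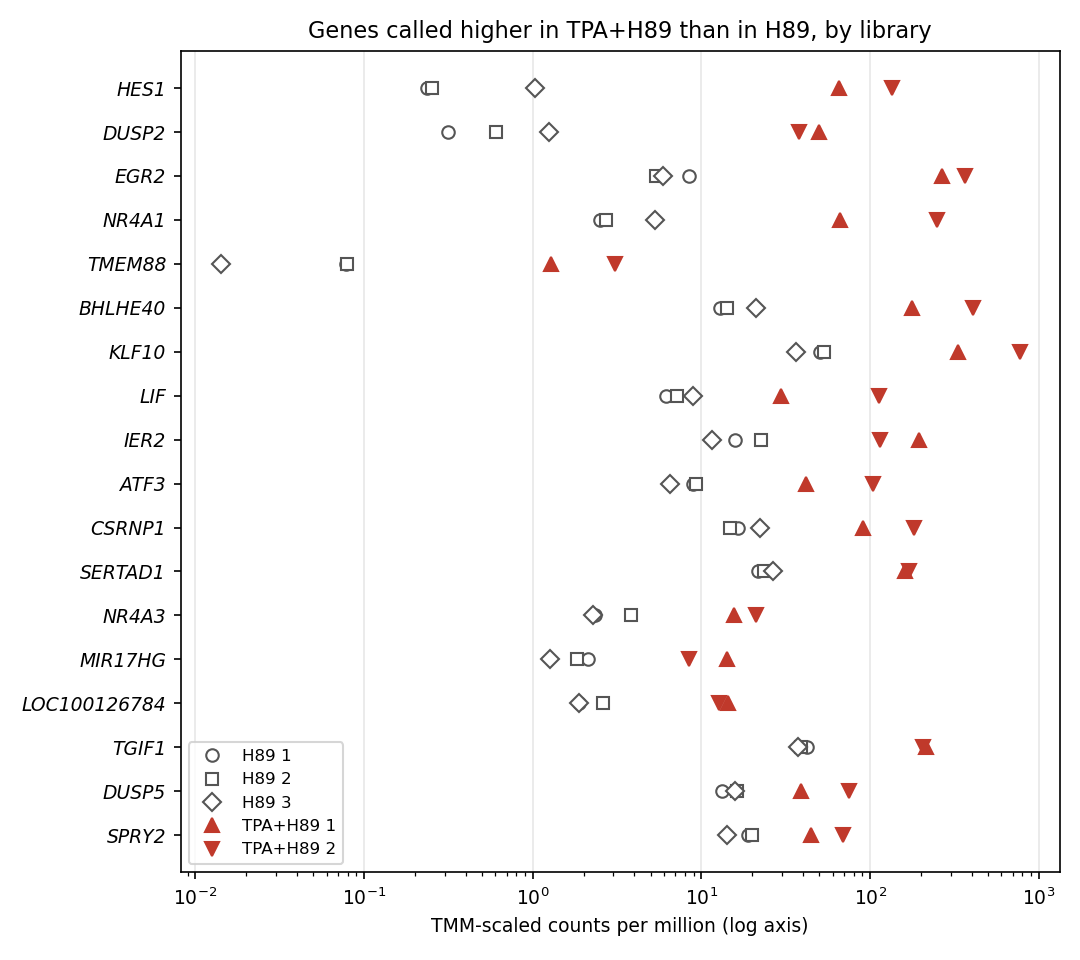
Levels of the 18 genes called higher in TPA+H89 than in H89. Each row is a gene, the horizontal log axis gives TMM-scaled CPM, open grey symbols are the 3 H89 libraries and filled red triangles the 2 TPA+H89 libraries. In all 18 rows both red symbols lie to the right of all open symbols, and the distance is widest for HES1 and narrowest for SPRY2.

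Transcription factors formed the largest group. EGR2, a zinc-finger factor of the early growth response family, stood at 8.46, 5.37 and 5.92 CPM in H89 1, 2 and 3 and at 265 and 365 CPM in TPA+H89 1 and 2. The groups were far apart, and EGR2 had the lowest p of all genes, with a rise of 5.58 ± 0.57 on the log2 scale (estimate ± SE, adjusted p = 0.00454). NR4A1, an orphan nuclear receptor, measured 2.51, 2.71 and 5.31 CPM in H89 and 66.3 and 249 CPM in TPA+H89. TPA+H89 2 was the higher of the 2 treated libraries, and the log2 fold change was 5.49 ± 0.77 (adjusted p = 0.022). Its relative NR4A3 rose from 2.35, 3.85 and 2.27 CPM to 15.7 and 21.2 CPM (2.71 ± 0.45, adjusted p = 0.0475). The third member, NR4A2, was at 0.548, 0.823 and 0.579 CPM in H89 and, with TPA, at 2.00 and 1.68 CPM, and did not pass the test (1.48 ± 0.56, adjusted p = 1).

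HES1, a repressor best known as a target of Notch signalling, had the largest rise. It was close to silent in H89 (0.235, 0.253 and 1.03 CPM) and reached 65.6 and 134 CPM in TPA+H89, a log2 fold change of 7.56 ± 1.16 (adjusted p = 0.0314). The related repressor BHLHE40, which also acts in the circadian clock, was at 12.8, 14.2 and 21.0 CPM in H89 and 176 and 410 CPM in TPA+H89 (4.19 ± 0.62, adjusted p = 0.0257). KLF10, a Kruppel-like factor known as a TGF-beta early response gene, was at 50.7, 53.0 and 36.4 CPM in H89 and 332 and 772 CPM in TPA+H89, so that TPA+H89 2 was again the higher library (3.56 ± 0.45, adjusted p = 0.0165). TGIF1, a homeobox repressor of SMAD-driven transcription, moved from 42.5, 38.9 and 37.3 CPM to 214 and 206 CPM. Its 2 treated libraries were nearly equal, its name-pair differences were 2.46 and 2.47, and its log2 fold change was 2.41 ± 0.26 (adjusted p = 0.005).

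ATF3, a stress-responsive relative of CREB, was at 8.89, 9.23 and 6.55 CPM in H89 and at 41.5 and 104 CPM in TPA+H89 (3.15 ± 0.47, adjusted p = 0.0257). IER2, an immediate-early nuclear protein, was at 15.9, 22.6 and 11.5 CPM in H89 and, with TPA, at 196 and 114 CPM (3.21 ± 0.48, adjusted p = 0.0257). Here TPA+H89 1 was the higher treated library, unlike for most factors. CSRNP1, a nuclear protein with transactivating activity, rose from 16.4, 14.8 and 22.1 CPM to 90.6 and 181 CPM (2.94 ± 0.39, adjusted p = 0.0165). SERTAD1, a transcriptional coregulator that also binds CDK4, rose from 21.8, 23.4 and 26.6 CPM to 161 and 171 CPM (2.79 ± 0.44, adjusted p = 0.033).

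The brakes on MAP kinase signalling followed in 3 of the 18. DUSP2, a nuclear phosphatase of MAP kinases, was at 0.313, 0.602 and 1.24 CPM in H89 and at 49.9 and 37.6 CPM in TPA+H89, so the groups were separated by a wide gap (5.88 ± 0.80, adjusted p = 0.0175). DUSP5, a phosphatase selective for ERK, was at 13.3, 16.2 and 15.8 CPM in H89 and at 39.2 and 75.4 CPM in TPA+H89 (1.93 ± 0.31, adjusted p = 0.0413). SPRY2, a Sprouty inhibitor of receptor signalling, showed the smallest called rise, from 19.0, 20.03 and 14.1 CPM to 44.6 and 69.4 CPM (1.69 ± 0.26, adjusted p = 0.0327). LIF, a cytokine of the interleukin 6 family, was the only called gene of the secreted list: 6.15, 7.204 and 8.88 CPM in H89 and 29.5 and 112 CPM in TPA+H89 (3.26 ± 0.54, adjusted p = 0.0475).

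The DUSP2 promoter is shown because, of the 4 preset genes with the lowest p (EGR2, CSRNP1, DUSP2 and NR4A1), it alone held one of the motifs searched. It is RefSeq sequence of build GRCh38.p14, chr2:96145391-96145690 on the minus strand, 250 bases before to 50 after the start of transcription, and the capitals mark an EGR site (GCGGGGGCG) at bases -103 to -95 from that start.
DUSP2: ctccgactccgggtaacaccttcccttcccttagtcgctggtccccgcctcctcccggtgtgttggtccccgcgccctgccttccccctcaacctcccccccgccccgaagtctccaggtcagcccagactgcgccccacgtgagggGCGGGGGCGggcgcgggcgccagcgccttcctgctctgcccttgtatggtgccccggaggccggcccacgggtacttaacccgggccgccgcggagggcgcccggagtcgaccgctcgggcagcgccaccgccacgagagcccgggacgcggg
RefSeq promoters were matched for 13 of the 18 called genes, and both strands were searched. Each gene was searched only at the first start of transcription listed for it, and any other starts were left out. The EGR site was in 2 of the 13 (DUSP2 and SPRY2) and in 5.02% of all 27305 promoters of that length. The CREB core TGACG was in 4 of the 13 (HES1, IER2, NR4A3 and SPRY2) and in 25.01% of all promoters. The full cAMP response element TGACGTCA, which contains that core, was in 0 of the 13 and 1.98% of all, the AP-1 site TGACTCA in 0 and 4.92%, and the CArG box bound by SRF in 0 and 1.29%. A match is a description of letters, and no match says only that these letters are not in this window.

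MIR17HG, the host transcript of the miR-17-92 cluster of growth-promoting microRNAs, was at 2.11, 1.82 and 1.27 CPM in H89 and at 14.2 and 8.39 CPM in TPA+H89. The groups did not overlap, and the log2 fold change was 2.70 ± 0.39 (adjusted p = 0.0257). The RefSeq gene lies on chromosome 13 (chr13:91347687-91354577, GRCh38.p14) and holds 6 hairpins with 12 mature sequences. The counts measure the host transcript and not the mature microRNAs. The leading arm of each hairpin is printed to show what the raised transcript encodes, with the seed (bases 2 to 8) in capitals.
hsa-miR-17-5p: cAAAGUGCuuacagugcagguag
hsa-miR-20a-5p: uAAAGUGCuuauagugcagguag
hsa-miR-18a-5p: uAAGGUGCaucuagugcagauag
hsa-miR-19a-3p: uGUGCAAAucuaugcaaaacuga
hsa-miR-19b-3p: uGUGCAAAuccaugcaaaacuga
hsa-miR-92a-3p: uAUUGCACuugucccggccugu
The seed AAAGUGC is shared by miR-17-5p and miR-20a-5p, and the seed GUGCAAA by miR-19a-3p and miR-19b-3p.

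The last called genes were a small membrane protein and an uncharacterised locus. TMEM88, known as an inhibitor of Wnt signalling at the membrane, had 2, 5 and 1 counts in H89 1, 2 and 3 and 7 and 238 counts in TPA+H89 1 and 2. On the CPM scale that was 0.0783, 0.0792 and 0.0141 against 1.28 and 3.06, with a log2 fold change of 5.33 ± 0.71 (adjusted p = 0.0165) that rests on very few counts in H89. Its upstream neighbour on chromosome 17 is KDM6B, a histone H3 demethylase, which was added after its value was seen. KDM6B was at 2.98, 3.80 and 3.70 CPM in H89 and 24.2 and 30.8 CPM in TPA+H89 (2.98 ± 0.54, adjusted p = 0.0775), and whether reads of KDM6B run into TMEM88 was not tested. LOC100126784 was at 1.88, 2.60 and 1.89 CPM in H89 and, with TPA, at 14.4 and 12.7 CPM (2.67 ± 0.43, adjusted p = 0.0413).

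Many classical immediate-early genes had large differences but did not pass the test. FOSB, a FOS family member, was at 0.235, 0.459 and 0.890 CPM in H89 and at 69.6 and 81.8 CPM in TPA+H89 (log2 fold change 7.10 ± 1.44, adjusted p = 0.143). FOS itself was at 41.7, 41.8 and 14.3 CPM in H89 and, with TPA, at 920 and 582 CPM (4.53 ± 1.02, adjusted p = 0.253). The groups of both genes did not overlap. EGR1 varied among the H89 libraries, at 42.6, 84.6 and 15.3 CPM, and was at 747 and 391 CPM in TPA+H89 (3.58 ± 0.73, adjusted p = 0.144). EGR3 came closest to the threshold, from 1.57, 1.44 and 3.29 CPM to 55.2 and 189 CPM (5.85 ± 1.02, adjusted p = 0.0622). EGR4 had no counts in 4 of the 5 libraries. JUNB was at 80.7, 115 and 54.9 CPM in H89 and, with TPA, at 416 and 1266 CPM, with differences of 1.85 and 4.53 in the name pairs and 2.37 and 3.99 in the batch pairs (adjusted p = 0.34). JUN (1.13) and MYC (1.02) had smaller log2 fold changes, both with an adjusted p of 1. ARC, a synaptic plasticity gene also induced by serum, was at 0.313, 0.0475 and 0.169 CPM in H89 and, with TPA, at 1.82 and 24.4 CPM, so its treated libraries were far apart (adjusted p = 0.104).

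By list, immediate-early transcription factors stood well above the background. Of 33 tested, 9 were called, where 0.0969% of all genes were called higher. Without overlap of the groups 24 were higher against 9.92% of all genes, and 19 were higher by more than 1 in both name pairs against 1.93%. The list's median was 2.71 on the log2 scale, with 1.95 and 3.03 in the name pairs of TPA+H89 1 and 2 and 2.22 and 2.81 in their batch pairs. A list of 12 genes known from work on MSK and histone H3, with IER3, DUSP1 and PTGS2 among them, had a median of 3.07. All 12 were higher without overlap, 9 by more than 1 in both name pairs, and 3 were called (NR4A1, ATF3 and IER2). These lists overlap each other, and they were written with earlier results of these data known.

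Regulators that feed back on ERK divided. Of 20 tested, 3 were called (DUSP2, DUSP5 and SPRY2), 9 were higher without overlap, and the median was 0.45. Among all genes 0.0969% were called higher and 9.92% were higher without overlap. ERRFI1, an inhibitor of the EGF receptor, was at 21.1, 20.7 and 21.6 CPM in H89 and at 39.7 and 66.8 CPM in TPA+H89 (1.34 ± 0.25, adjusted p = 0.0993). DUSP1, the nuclear phosphatase of p38, JNK and ERK, was at 50.6, 52.3 and 75.0 CPM in H89 and, with TPA, at 186 and 426 CPM (2.37 ± 0.47, adjusted p = 0.118). IER3, a survival factor that prolongs ERK signalling, was at 40.4, 38.1 and 46.3 CPM in H89 and, with TPA, at 520 and 857 CPM (4.05 ± 0.79, adjusted p = 0.118). All 3 had groups that did not overlap. DUSP6, the cytoplasmic ERK phosphatase, had overlapping groups: 39.0, 43.3 and 28.9 CPM in H89 and 14.03 and 32.8 CPM in TPA+H89, with differences of -1.62 and 0.18 in the name pairs and -1.47 and -0.11 in the batch pairs.

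Among the genes for mRNA decay and stress limits, 0 of 17 were called, 9 were higher without overlap, 2 were lower without overlap, and the median was 0.75. The background was 9.92% higher and 10.9% lower without overlap, so the lower count is near it. TRIB1, a pseudokinase, was at 14.6, 16.3 and 14.6 CPM in H89 and at 45.6 and 208 CPM in TPA+H89 (adjusted p = 0.104). MCL1, a survival protein of the BCL2 family, was at 225, 265 and 223 CPM in H89 and, with TPA, at 611 and 783 CPM (adjusted p = 0.118). GADD45B, a stress sensor, was at 27.7, 22.5 and 39.7 CPM in H89 and, with TPA, at 429 and 510 CPM (adjusted p = 0.144). ZFP36, which destabilises mRNAs with AU-rich elements, was at 17.9, 23.2 and 8.73 CPM in H89 and, with TPA, at 72.2 and 272 CPM (adjusted p = 0.329). In each of these 4 genes both treated libraries exceeded all H89 libraries.

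**Figure D2:**
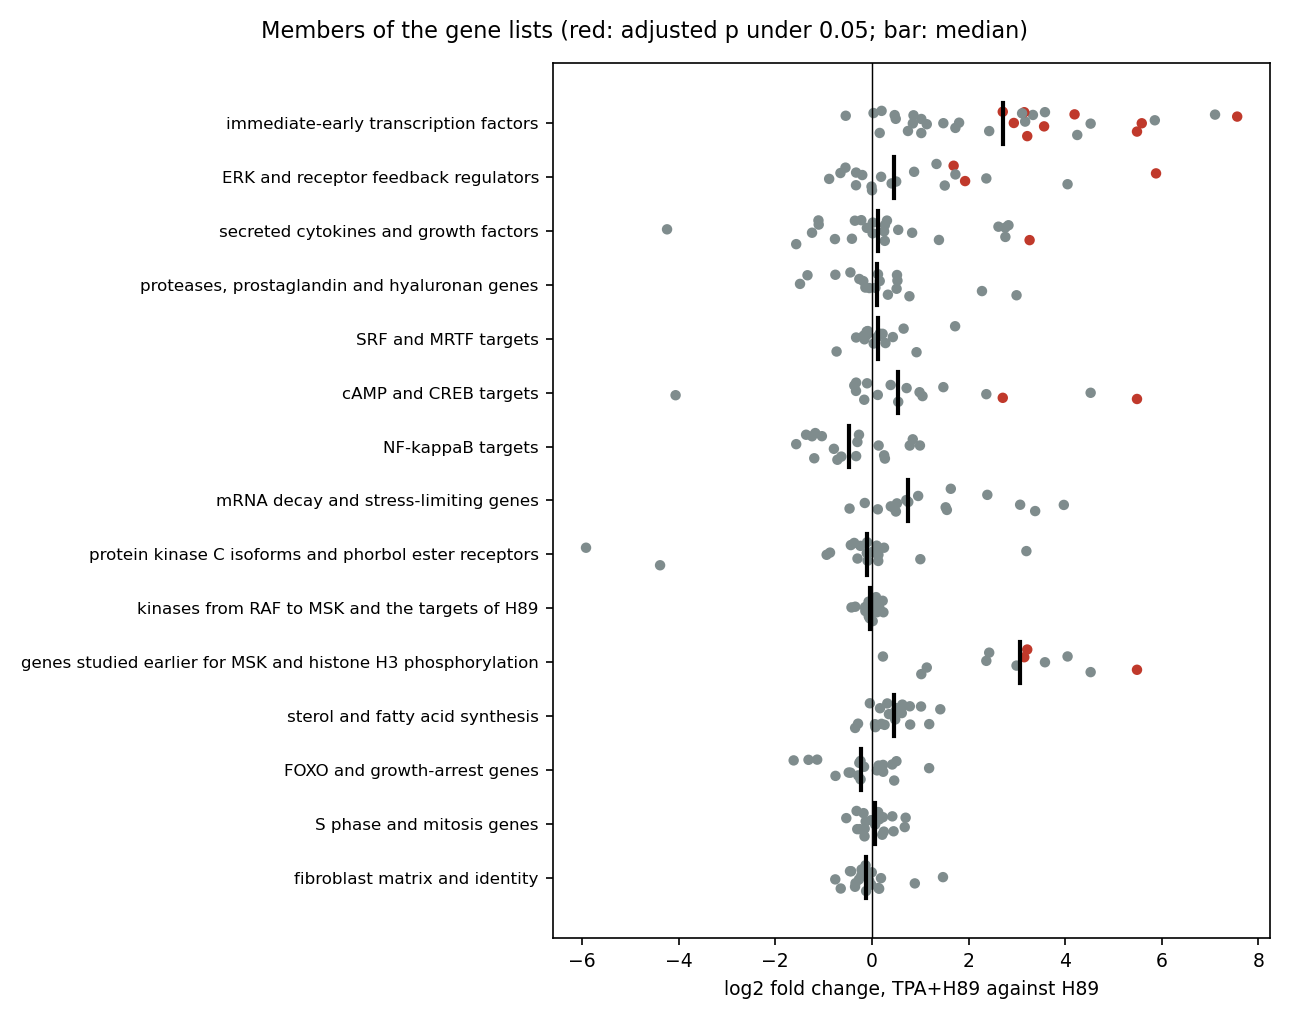
Log2 fold change of TPA+H89 against H89 for the tested members of 15 gene lists. Each point is a gene, red points passed the test, and black bars are list medians. The bars of the immediate-early and MSK lists sit near 3, those of the kinase, fibroblast and S phase lists near 0, and all red points are on the right.

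Secreted signals were mixed. Of 24 tested, 1 was called, where 0.0969% of all genes were called higher. Without overlap 6 were higher and 1 lower (9.92% and 10.9% of all genes), and the median was 0.14. It was -0.52 and 0.60 in the name pairs and 0.23 and 0.25 in the batch pairs. HBEGF, a ligand of the EGF receptor, was at 0.783, 1.17 and 3.40 CPM in H89 and at 6.56 and 17.6 CPM in TPA+H89 (2.76 ± 0.60, adjusted p = 0.216). IL11 was at 8.93, 5.46 and 12.4 CPM in H89 and, with TPA, at 31.9 and 77.4 CPM (2.62 ± 0.58, adjusted p = 0.224). GDF15, a stress cytokine, was at 11.2, 14.8 and 16.03 CPM in H89 and, with TPA, at 31.0 and 158 CPM (2.76 ± 0.72, adjusted p = 0.501). The groups of these 3 did not overlap. IL6 did overlap, at 26.0, 39.2 and 11.6 CPM in H89 and 19.9 and 40.7 CPM in TPA+H89, with differences of -0.98 and 1.81 in the name pairs and -0.39 and 0.94 in the batch pairs.

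PTGS2, the inducible cyclooxygenase of prostaglandin synthesis, was at 56.4, 67.8 and 53.0 CPM in H89 and at 552 and 389 CPM in TPA+H89 (2.99 ± 0.64, adjusted p = 0.201). It led a list of 18 proteases, prostaglandin and hyaluronan genes of which 0 were called and 3 were higher without overlap (9.92% of all genes), with a median of 0.10. MMP1, the interstitial collagenase, overlapped at 376, 632 and 130 CPM against 146 and 125 CPM. Among 17 cAMP and CREB targets 2 were called, both NR4A genes, 7 were higher without overlap (0.0969% and 9.92% of all genes), and the median was 0.54. CREM, a CREB family gene outside the immediate-early list, was at 14.2, 13.9 and 15.02 CPM and at 17.3 and 14.1 CPM.

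NF-kappaB targets did not move with the immediate-early genes. Of 18 tested, 0 were called, 1 was higher without overlap and 5 were lower, where 10.9% of all genes were lower without overlap. The median was -0.48, with -1.05 and 0.13 in the name pairs and -0.86 and -0.24 in the batch pairs. NFKBIA, the inhibitor that NF-kappaB induces, was at 98.6, 116 and 59.2 CPM in H89 and at 99.3 and 214 CPM in TPA+H89. TNFAIP2 was at 96.2, 116 and 70.5 CPM in H89 and, with TPA, at 41.4 and 50.6 CPM (-1.04 ± 0.53, adjusted p = 1). SOD2 shows how far the H89 libraries differ among themselves, at 2235, 3223 and 380 CPM, with 595 and 918 CPM in TPA+H89.

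Over 21 sterol and fatty acid synthesis genes 0 were called, and the treated libraries differed. The medians were 1.26 and -0.93 in the name pairs of TPA+H89 1 and 2, and 1.42 and -0.15 in their batch pairs. H89 3 was high in this pathway: the summed level of the list was 1683, 1825 and 5555 CPM in H89 1, 2 and 3 and 5072 and 3245 CPM in TPA+H89 1 and 2. INSIG1, the sterol-regulated brake of SREBP processing, was at 57.2, 59.4 and 239 CPM in H89 and at 234 and 398 CPM in TPA+H89. HMGCS1, an early enzyme of the mevalonate pathway, was at 57.6, 56.2 and 214 CPM in H89 and, with TPA, at 345 and 152 CPM, so its groups overlapped, and it differed by 2.61 and -0.49 in the name pairs and by 2.58 and 0.47 in the batch pairs. SRF and MRTF targets had medians of 0.44 and -0.60 in the name pairs and 0.62 and -0.18 in the batch pairs, with 0 of 18 called. CYR61, a matricellular protein of this list, was higher by 2.17 and 0.81 in the name pairs and by 2.47 and 0.91 in the batch pairs: 141, 174 and 201 CPM in H89 and 783 and 351 CPM in TPA+H89 (1.72 ± 0.34, adjusted p = 0.118). CTGF, its relative, overlapped at 325, 267 and 792 CPM against 1196 and 555 CPM.

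**Figure D3:**
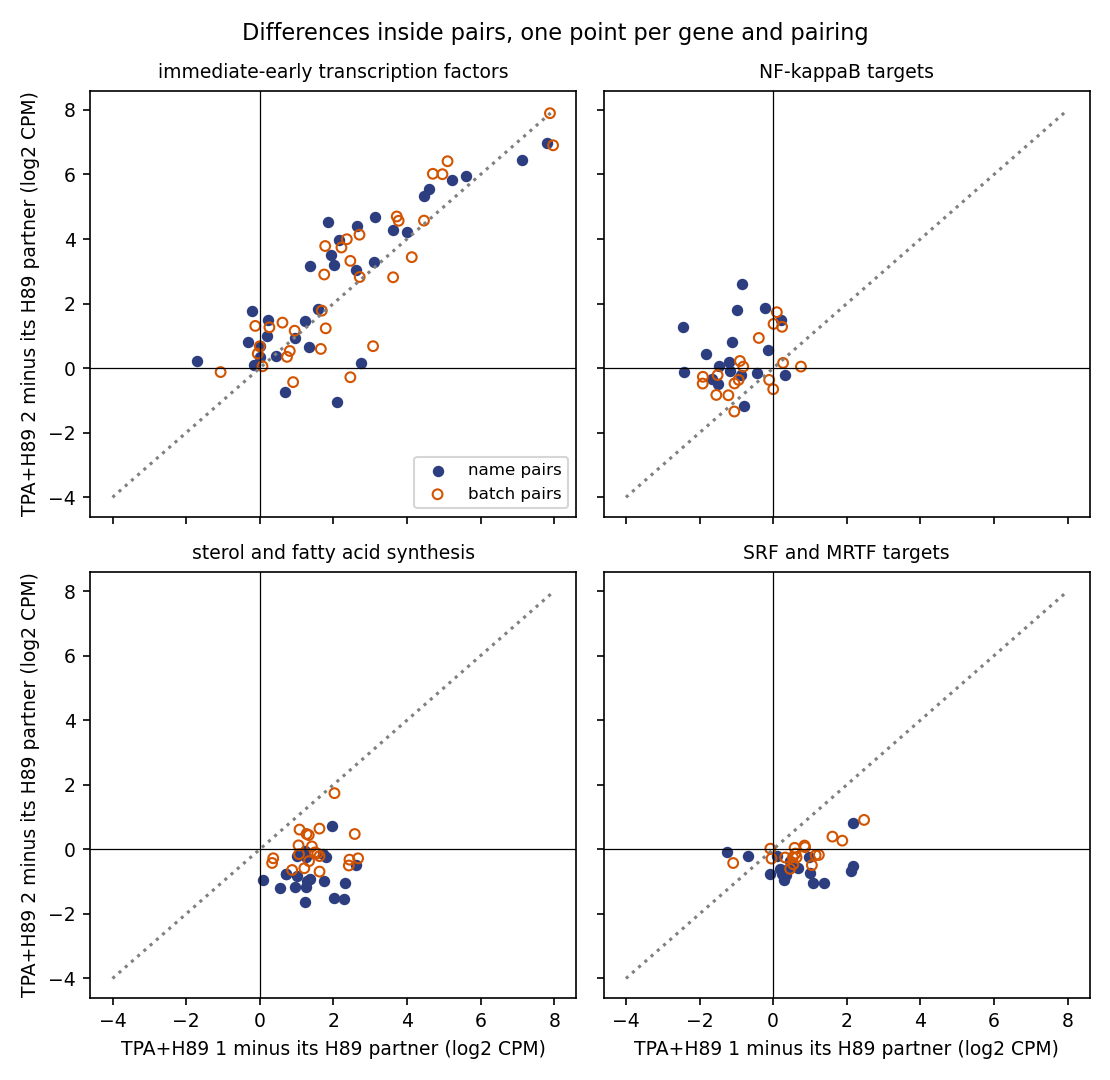
Differences inside pairs, in log2 CPM, for 4 gene lists. Each gene has a filled point for its name pairs and an open point for its batch pairs, with the difference of TPA+H89 1 on the horizontal axis, that of TPA+H89 2 on the vertical axis and equal differences on the dotted line. Immediate-early factors lie mainly in the upper right with either pairing, NF-kappaB targets mainly on the left, and sterol genes mainly on the right, with the open points nearer the horizontal zero line than the filled ones.

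For the genes of the signalling route itself no change was called. Of 22 kinases and factors from RAF to MSK, with the targets of H89 among them, 0 were called, 0 had groups that did not overlap in either direction, and the median was -0.04. RPS6KA4, which encodes MSK2, was at 41.7, 49.4 and 72.0 CPM in H89 and at 42.5 and 56.3 CPM in TPA+H89. PRKACA, the catalytic subunit of protein kinase A, was at 43.9, 52.5 and 53.5 CPM and at 26.6 and 47.6 CPM. Among 19 protein kinase C isoforms and other phorbol ester receptors 0 were called, 1 was higher and 4 were lower without overlap, against 9.92% and 10.9% of all genes, and the median was -0.10. Of 19 FOXO and growth-arrest genes 0 were called, again 1 was higher and 4 were lower without overlap, and the median was -0.24. Of 19 S phase and mitosis genes 0 were called, and 2 were higher and 2 lower without overlap (median 0.07), and of 21 fibroblast identity genes 0 were called and 0 had groups without overlap (median -0.13).

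No gene passed the test for a fall. Downwards, 10.9% of all genes had groups that did not overlap and 0.808% were lower by more than 1 in both name pairs. The fall of lowest p was SH3TC1, at 2.62, 2.36 and 2.51 CPM in H89 and at 0.729 and 1.08 CPM in TPA+H89 (-1.40 ± 0.38, adjusted p = 0.576). THSD1, a thrombospondin-domain membrane protein, was at 8.18, 8.50 and 10.8 CPM in H89 and, with TPA, at 3.28 and 5.36 CPM (-1.06 ± 0.33, adjusted p = 0.842). Among the 8 non-overlapping falls of lowest p were the zinc-finger genes ZNF555, ZNF230 and ZNF214, with log2 fold changes of -0.97, -1.11 and -1.47. C10orf10 was at 4.50, 7.00 and 1.64 CPM and had no counts in TPA+H89 1 and 0.719 CPM in TPA+H89 2. GAS1, a growth-arrest gene, was at 116, 144 and 63.1 CPM in H89 and, with TPA, at 38.3 and 48.5 CPM (-1.31 ± 0.47, adjusted p = 1).

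The next question was whether the response to TPA differed with and without H89. TPA against control called 72 genes higher, which is 0.388% of the genes, and 17 of the 18 genes called with H89 were among them. That is 94.4% of the list with H89 and 23.6% of the list without. The exception was MIR17HG, whose log2 fold change without H89 was 1.48 ± 0.38 (adjusted p = 0.168). The test of the difference between the 2 responses called 0 genes in edgeR and 0 in DESeq2, with 887 and 1065 genes at an unadjusted p under 0.05, so none of the differences below passed it. Without TPA 1 this test called 126 genes, with TPA 2 as the lone TPA library, assumed to vary like the other groups.

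For several of the 18 genes the responses were close. EGR2 had log2 fold changes of 5.58 with and 5.49 without H89, a difference of 0.09 with a 95% interval of -1.46 to 1.65. BHLHE40 had 4.19 and 4.14, a difference of 0.05 (-1.73 to 1.83). KLF10 had 3.56 and 3.28, a difference of 0.29 (-1.05 to 1.63). NR4A1 had 5.49 and 5.73, a difference of -0.25 (-2.37 to 1.88). These intervals allow a change of more than 2-fold in either direction, so they do not show that the responses were equal.

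In 6 of the 18 the unadjusted 95% interval left out 0, in 4 of them with a smaller response under H89. The 18 were chosen on TPA+H89 against H89, which is part of this difference, so these counts are a description. Among all genes 4.78% had an unadjusted p under 0.05 in this test. DUSP5 reached 160 and 234 CPM in the TPA libraries and 39.2 and 75.4 CPM in TPA+H89, and its difference of responses was -1.79 (-2.76 to -0.82). NR4A3 reached 62.3 and 77.0 CPM with TPA and 15.7 and 21.2 CPM with TPA+H89, a difference of -2.21 (-3.60 to -0.82). ATF3 differed by -1.45 (-2.86 to -0.03) and SPRY2 by -0.86 (-1.67 to -0.05). MIR17HG and TMEM88 went the other way, by 1.21 (0.02 to 2.40) and 2.09 (0.11 to 4.08). TMEM88 did not reach a higher level with H89, at 3.16 and 2.61 CPM in TPA and 1.28 and 3.06 CPM in TPA+H89. Its start was lower, at 0.239, 0.360 and 0.324 CPM in control and 0.0783, 0.0792 and 0.0141 CPM in H89. Those H89 levels rest on 2, 5 and 1 counts. All 6 had an adjusted p of 0.900.

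**Figure D4:**
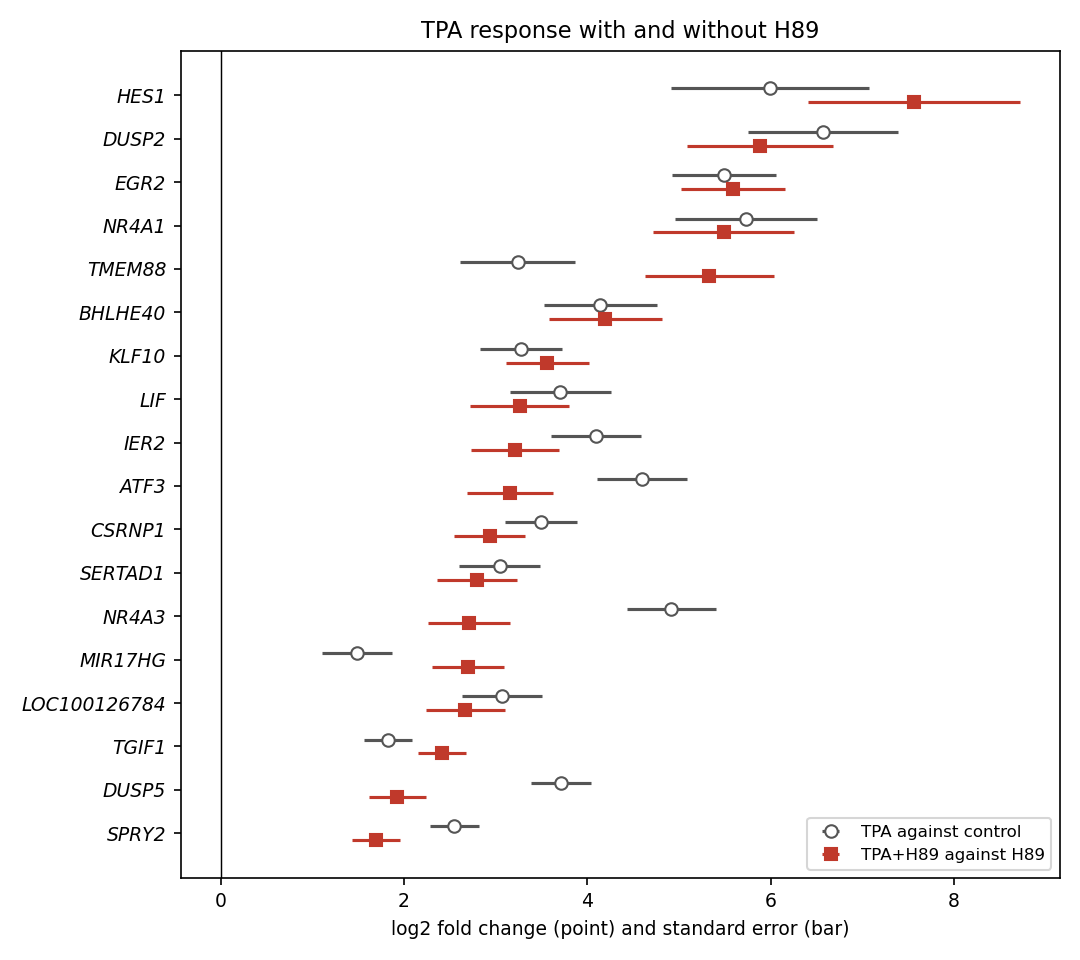
Log2 fold change of the 18 called genes, with standard errors as bars. Red squares are TPA+H89 against H89 and open circles TPA against control. The symbols nearly coincide for EGR2 and BHLHE40. The red squares lie farthest to the left for DUSP5, NR4A3 and ATF3 and farthest to the right for TMEM88, HES1 and MIR17HG.

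Over the 72 genes called without H89, all 72 were higher with H89 too, 66 of them without overlap, 44 by more than 1 in both name pairs and 17 with a call. The median log2 fold change of these genes was 1.91 with H89 and 3.26 without, and the difference of responses was below 0 in 65 of 72, against 9141 of all 18575 genes. These 72 were chosen on TPA against control, so their values without H89 are high by choice and the counts of 65 and the medians are a description. Over the lists the median difference was -0.88 for immediate-early factors (25 of 33 below 0), -0.78 for ERK feedback genes (16 of 20), -1.33 for NF-kappaB targets (16 of 18) and -1.06 for the MSK list (10 of 12). The median of all genes was 0.01. Other lists were below 0 too, such as sterol synthesis at -0.89 (19 of 21), SRF and MRTF targets at -0.67 (16 of 18) and secreted signals at -0.64 (20 of 24). Above 0 were the fibroblast (0.24), protein kinase C (0.01) and small structured RNA (1.58) lists. So were the endothelial, melanocyte and leukocyte markers (0.58, 0.82 and 0.90). The TPA libraries differed widely in some lists. Immediate-early factors summed to 5983 and 20444 CPM in TPA 1 and 2 and to 4866 and 6689 CPM in TPA+H89 1 and 2. For ERK feedback genes the sums were 2537 and 7931 CPM in TPA and 1267 and 2063 CPM in TPA+H89. In sterol synthesis TPA 1 was the higher, at 5742 against 3174 CPM. How far the median differences rest on a single TPA library was not tested.

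Outside the 18, the genes of lowest p for a smaller response under H89 included DUSP1, HELZ2 and IRF7. DUSP1 reached 772 and 2839 CPM with TPA alone and 186 and 426 CPM with TPA+H89, a difference of responses of -2.43 (-3.88 to -0.99). HELZ2, an interferon-induced helicase, was at 46.7, 48.4 and 96.7 CPM in H89 and 37.0 and 41.8 CPM in TPA+H89, and at 81.2 and 211 CPM with TPA, a difference of -2.61 (-3.99 to -1.22). IRF7, an interferon regulatory factor, differed by -2.47 (-3.94 to -0.99). In the other direction MGP, matrix Gla protein, was level with H89, at 4.03, 2.09 and 1.92 CPM in H89 and 2.37 and 3.04 CPM in TPA+H89. It was at 5.28, 6.84 and 4.38 CPM in control and lower after TPA alone, at 1.24 and 1.09 CPM (-2.24 ± 0.44, adjusted p = 0.0484). The difference of responses was 2.28 (1.02 to 3.53), and every H89 library already lay below every control library. SELENOP, the plasma selenoprotein, differed by 2.63 (1.25 to 4.02). LINC01358 had the lowest p of the named genes in this direction, with a difference of 4.38 (2.54 to 6.22). Its levels were low, at 0.431, 0.364 and 0.424 CPM in H89 and 2.92 and 0.925 CPM in TPA+H89. NIT1 differed by 1.68 (0.76 to 2.59) and USF1 by 1.38 (0.59 to 2.17). All had an adjusted p of 0.900 for the difference, and TPA 2 was the deepest library of the series and among those with the lowest correlation with the rest.

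Against EGF+H89, which shares the inhibitor and the labelled times but not the mitogen, 0 genes were called in edgeR and 0 in DESeq2, with 412 and 520 at an unadjusted p under 0.05. For 14 of the 18 the unadjusted 95% interval of the difference contained 0, and for 4 it did not (DUSP2, NR4A3, NR4A1 and SPRY2). The 18 were chosen with the same TPA+H89 libraries, so these counts are a description. Among all genes 2.22% had an unadjusted p under 0.05 in this test. EGR2 was at 243 and 240 CPM in EGF+H89, and the difference of TPA+H89 from it was 0.39 (95% interval -0.82 to 1.59). DUSP2 stood apart, at 4.70 and 4.90 CPM in EGF+H89 against 49.9 and 37.6 CPM in TPA+H89, a difference of 3.19 (1.39 to 4.99). NR4A3 was at 5.83 and 5.03 CPM against 15.7 and 21.2 CPM (1.77, 0.68 to 2.86), and NR4A1 at 37.8 and 38.3 CPM against 66.3 and 249 CPM (2.05, 0.35 to 3.75). SPRY2 had the smallest difference of these 4, at 0.65 (0.02 to 1.28). DUSP6, which is not among the 18, was lower in TPA+H89, at 14.03 and 32.8 CPM against 70.3 and 62.0 CPM (-1.49, -2.42 to -0.55). All these had an adjusted p of 1.

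**Figure D5:**
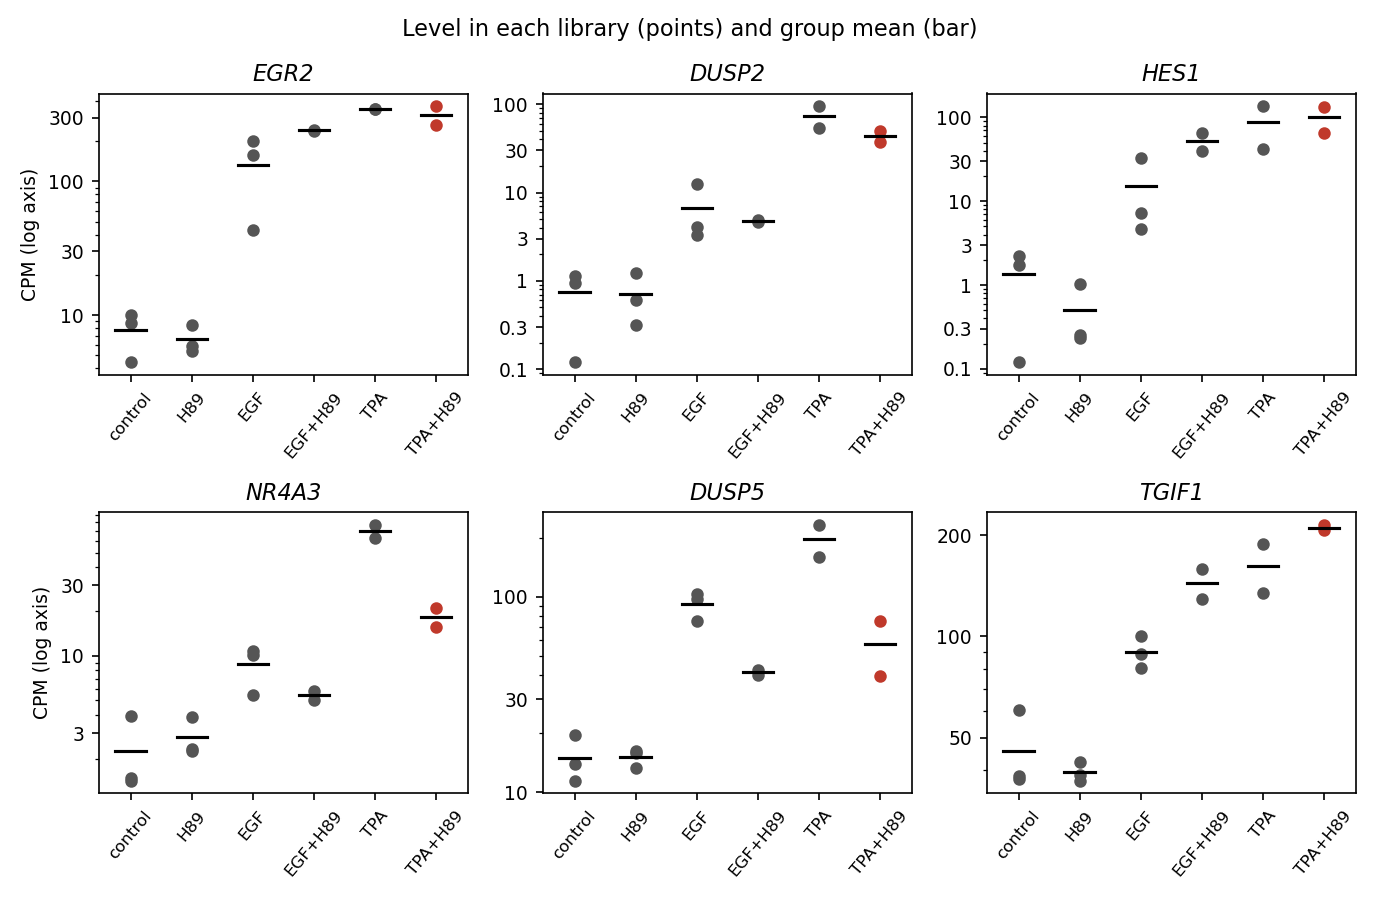
Levels of EGR2, DUSP2, HES1, NR4A3, DUSP5 and TGIF1 in each library of all 6 groups, on log axes in TMM-scaled CPM. Points are libraries, bars are group means and TPA+H89 is red. Both TPA+H89 points are above both EGF+H89 points in all panels but DUSP5. For DUSP2, DUSP5 and NR4A3 both TPA+H89 points are below both TPA points.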

How the data were processed

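The deposited values are counts of reads per gene symbol made by the authors, for 28374 genes in 16 samples. Per the labels' protocols, ribosomal RNA was removed from total RNA before stranded libraries were built, and the 3 platforms listed are not assigned to single samples. HOMER and the builds hg19 and GRCh37 are named in the submitters' processing notes. Aligner and annotation: not given in the sources used here. One control library was identical to another and was counted once, which left 15.

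Genes were kept by filterByExpr (smallest count 10), which left 18575. TMM scaling (trimmed mean of M values) was applied, and all 15 libraries were fitted with a term per group by the quasi-likelihood test of edgeR 4.0.16 in R 4.3.3, with Benjamini-Hochberg adjustment over all genes at 0.05. Log2 fold changes are on the count model's scale. Pair differences are of log2 CPM (prior count 2). Intervals are 95% and unadjusted. Alternatives were DESeq2 1.42.0, its size factors, limma 3.58.1 (voom with quality weights), other filters, only the groups compared, both control copies, terms for technical batch and for sets of sample names, a log2 threshold of 1, total count scaling and leaving out libraries. Batches were read from the counts (share of RNR1 and RNR2, and the pattern of low counts).

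Named genes were up to 12 largest called rises and falls with a mean of at least 1 CPM, filled up to 8 in a direction with genes of lowest p, 39 preset genes, up to 4 members of each of 20 lists by p, and up to 5 genes of lowest p in each direction for the other comparisons. The other called genes, KDM6B, and the list members CREM, NFKBIA, SOD2 and RPS6KA4 fall outside this rule and were chosen after their values were seen. Of 350 list symbols 343 were found and 329 tested. The members and lists were chosen with earlier results of these data known. On simulated data for TPA+H89 against H89 (18575 genes, 3 runs of 200 changed genes) the test recovered 0% of genes changed 2-fold, 15.9% at 4-fold and 54.5% at 8-fold, and 4.11% of its calls were false. Apart from the changed genes, each simulated gene had the same mean level in all groups, and no batches were simulated. The real libraries differ in such ways, so these shares may not hold for them. Promoters and microRNAs are RefSeq sequences of GRCh38.p14, matched by symbol.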

Additional observations from a re-analysis of the deposited data

How the results depend on the processing

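The count of 18 genes higher in TPA+H89 than in H89 became 76 with DESeq2, 80 with the technical batch as a term, 76 with the replicate block (naming set as a term), 69 with limma-voom, 6 against a log2 threshold of 1, 79 without control 1, EGF 1 and TPA 2, and 1 with total count scaling; the last 2 settings were chosen after seeing the data. Leaving out 1 library gave 0 to 17. It was 19 to 27 under the other 5 alternatives, of which the fit of only the groups compared shared 11 of the 18. The causes were not tested. No alternative called a gene lower. The difference of responses had 0 calls, and 0 to 126 on leaving out 1 library. TPA+H89 against EGF+H89 had 0 calls, but 1 with the replicate block and 1 with limma-voom. IL6 turned to -0.054 with limma-voom and ranged from -0.37 to 0.70 on leaving out 1 library. MGP turned to -0.0035 without a filter and -0.042 with total count scaling, and ranged from -0.17 to 0.45 on leaving out 1 library. List medians moved beyond the spread between the pairs in 46 of their alternative values and not in 214. With the name pairs the deviations correlated at -0.35 and 0.04, which cannot show whether those libraries share an origin. In simulated data for the comparison as a whole 2-fold changes were not recovered. TPA+H89 1 had 7527026 counts, and the part of its depth was not tested.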
